A study of Rattus norvegicus with 65 samples.

Results

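Male Sprague-Dawley rats, 6 weeks old, received a single administration of DCP, and their livers were compared with livers of rats that received a single administration of ME, SN or Urethane. The groups were chosen by sample title: the 3 arrays titled DCP short against the mean of the group means of ME short, SN short and Urethane short, 3 arrays each, which makes 12 of the 65 arrays of the series. The series asks which liver genes separate genotoxic from non-genotoxic carcinogens, and these compounds form its test set, which holds no control rats among the arrays used here. DCP, ME and SN are not spelled out in the sample labels. The study's list of compounds names 1,3-dichloro-2'-propanol, methyleugenol and sodium nitrite, whose initials they fit, beside urethane. The descriptions read 1X50 for DCP, 1x300 for ME, 1x50 for SN and 1X500 for Urethane, with no unit, so the doses differed between compounds. Short arrays are labelled 3 hours, whereas the common protocol states autopsy after 24 hours; the time of sampling is given here as labelled. Each array is 1 rat, with whole-liver RNA, so fewer cells of a type and less RNA per cell cannot be told apart.

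The liver is the main organ that metabolises foreign chemicals. Hepatocytes conjugate electrophiles to glutathione, and when glutathione or cysteine runs short the transcription factors NRF2 and ATF4 are known to switch on genes for cystine import, glutathione synthesis and antioxidant enzymes. ATF4 belongs to the integrated stress response, in which phosphorylated eIF2 alpha lowers general translation while a few transcripts, ATF4 itself among them, are still translated. Immediate early genes are transcription factors and signalling inhibitors that respond within minutes to hours of a stimulus.

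The 3 to 5 prime difference of the GAPDH control probes was 0.55 to 0.68 in DCP livers, within the 0.43 to 0.83 of the others, and hepatocyte markers averaged 13.39 to 13.47 in DCP livers and 13.38 to 13.52 in the others. Array medians were 5.64 to 5.67 in DCP livers and 5.63 to 5.66 in the others, with DCP short replicate 1 the highest. The highest signals of DCP short replicates 1 and 2, 14.32 and 14.36, were below those of all the other short arrays, DCP short replicate 3 included (14.62 to 14.72). Correlations of log2 signals between arrays were 0.987 to 0.992 within DCP, 0.953 to 0.968 between DCP and other compounds, and 0.966 to 0.986 between 2 other compounds. ME short replicate 1 stood apart from the other arrays on the second principal component of the short arrays. Urethane short replicates 1 and 2 were closer to each other than any other pair of 1 group, with an SD of 0.14 for the difference over genes beside 0.24 or more for the others. They are labelled as separate rats and were counted so. Averaged as 1 rat, they left 4108 genes called between DCP and the others and 187 among the 3 other compounds.

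DCP livers stood apart from the livers of all 3 other compounds. Said of genes, rose and fell mean higher and lower in DCP livers than in the mean of these 3 compounds. With no control rats in the test set, the words do not name a change from untreated liver. Each gene was read from 1 probe set on the log2 scale of the deposited RMA values, where a difference of 1 is a doubling of signal, and 10220 genes above a signal filter were tested with limma at a Benjamini-Hochberg adjusted p under 0.05. Of these, 4297 (42%) passed the test, 1386 higher (13.6%) and 2911 lower (28.5%) in DCP livers, and the median difference over all genes was -0.07. Of the 10220 genes, 45 would not have passed the signal filter without the 3 DCP short arrays, and 22 of these were called higher. They are included in the counts and shares, but their differences are a description with no test. Among the genes that passed, large differences were mostly upward: 192 were higher and 62 lower by more than 1 on the log2 scale. By more than 2, 46 were higher and 4 lower, and by more than 3, 20 were higher and 0 lower. Over all genes tested, passing or not, differences ran from -3.25 to 6.05. The 3 DCP arrays did not overlap the 9 others for 2692 genes (26.3%): they lay above for 875 (8.56%) and below for 1817 (17.8%). Called with no overlap were 851 higher (8.33%) and 1785 lower (17.5%). Against each compound alone, the numbers of genes called were 3522 (34.5%) for ME, 3944 (38.6%) for SN and 3298 (32.3%) for Urethane; these contrasts share the DCP rats. Among the 3 other compounds themselves, a moderated F test called 569 genes (5.57%), a count that fell to 199 without Urethane short replicate 2 and to 112 when only the 12 short arrays were fitted. When each compound's mean was counted as 1 observation, so that the spread between ME, SN and Urethane set the error, 219 genes passed, 165 higher and 54 lower.

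The promoters of several genes that rose in DCP livers hold the short sequence that ATF4 and its partners bind, or the one that NRF2 and small MAF proteins bind, and they are shown here because targets of these factors form several of the groups below. Sequences are RefSeq windows of the GRCr8 assembly, read 5′ to 3′ on the gene's strand and ending before the annotated start; capitals mark the motif. The amino acid response element was searched as TGATGNAA on both strands in the 250 bases before the start.
Chac1, chr3:126795938-126795997, plus strand: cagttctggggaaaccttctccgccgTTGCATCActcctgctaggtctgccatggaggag
Trib3, chr3:161275534-161275580, minus strand: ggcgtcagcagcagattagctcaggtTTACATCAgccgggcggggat
Fgf21, chr1:105221486-105221545, minus strand: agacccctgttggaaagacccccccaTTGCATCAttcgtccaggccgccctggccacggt
Nupr1, chr1:190645923-190645982, minus strand: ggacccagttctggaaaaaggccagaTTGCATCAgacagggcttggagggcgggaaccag
Slc7a1, chr12:11664432-11664487, plus strand: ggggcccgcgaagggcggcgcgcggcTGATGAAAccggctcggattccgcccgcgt
The first 4 hold the motif on the strand opposite to the gene, and Slc7a1 holds it on the gene's own strand.
Of the 22 integrated stress response genes that rose and had a window, 6 (27.3%) held the motif, against 3.27% of all 27457 windows and 1.79% of the 8595 windows of genes tested. The list was made of known genes of the pathway, so a raised share can follow from the list alone. The antioxidant response element core was searched as TGACNNNGC.
Gclm, chr2:213031937-213031997, plus strand: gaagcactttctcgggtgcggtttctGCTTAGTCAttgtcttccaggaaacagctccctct
Gsta3, chr9:31154946-31154988, plus strand: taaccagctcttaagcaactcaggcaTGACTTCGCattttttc
Gstp1, chr1:210769732-210769792, minus strand: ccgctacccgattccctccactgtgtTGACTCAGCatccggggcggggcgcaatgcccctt
It stood in 4 of the 16 windows of NRF2 targets that rose (25%), against 10.2% of all windows and 12.6% of those of genes tested. The same core stood in 6 of the 22 windows of integrated stress response genes that rose (27.3%) and in 3 of the 16 of immediate early genes that rose (18.8%). The cyclic AMP response element TGACGTCA, shown for the gene with the largest difference, stood in 4 of 16 windows of immediate early genes that rose (25%), against 1.7% of all windows and 3.0% of those of genes tested.
Maff, chr7:112792710-112792769, plus strand: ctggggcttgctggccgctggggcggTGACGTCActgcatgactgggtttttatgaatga
None of these matches overlapped one of the other motifs searched. The E-box CACGTG stood in 4 of the 16 windows of immediate early genes that rose (25%) and in 0 of the 16 of NRF2 targets that rose. It stood in 8.47% of windows of genes tested. The heat shock element GAANNTTC stood in 3 of the 4 windows of heat shock genes that rose, against 4.98% of those of genes tested. The other lists were likewise made of known genes, so their raised shares too can follow from the lists alone. Members that did not rise were not counted. A match describes the letters of the window and was not tested as a binding site.

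Transcription factors of the stress and growth response showed the largest differences. Maff encodes a small MAF protein that pairs with NRF2 and related factors. Its signal was 11.08, 11.12 and 11.18 in DCP livers, against 4.12 to 6.36 (median 4.71) in the 9 others. Atf3, a stress-induced factor of the ATF family, read 11.50, 11.61 and 11.93 in DCP livers, against 4.64 to 8.42 (median 5.16) in the others. Neither gene overlapped between groups, and the differences were 6.05 ± 0.27 for Maff (SE, 66.4-fold, adjusted p = 5.19e-12) and 5.97 ± 0.49 for Atf3 (62.5-fold, adjusted p = 2.96e-08). The highest reading of either gene outside DCP came from SN short replicate 3, which read 6.36 for Maff and 8.42 for Atf3. Myc, a driver of growth and ribosome production, had 11.82, 12.04 and 12.08 in DCP livers, against 6.46 to 8.44 (median 7.70) in the others, a difference of 4.37 ± 0.43 (SE, adjusted p = 2.45e-07). Signals under 5.64, the median of the test-set table, may lie near background, and the folds of genes with such readings depend on it.

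Of 27 immediate early genes tested, 22 rose, 0 fell and 5 did not pass, beside 13.6% of all genes higher and 28.5% lower. Their median difference was 1.50 beside -0.07 over all genes. Klf6, a zinc-finger factor, rose by 3.65 ± 0.15 (SE). Tnfrsf12a, the receptor for TWEAK, read 10.40, 10.36 and 10.87 in DCP livers and 6.33 to 7.39 (median 6.70) in the others, a difference of 3.80 ± 0.16. Trib3, Ddit3, Ppp1r15a, Atf4, Psat1, Mthfd2, Nupr1, Nars1, Jun, Fos, Egr1, Txnrd1, Gstp1, Hspa5, Hsp90b1, Asns, Phgdh, Bmal1, Cdkn1a, Hspa1a, Cyp1a1, Rgs16 and the members counted at 5 or fewer in a list were chosen for naming after their values were seen. Jun, a component of AP-1, read 12.04, 12.02 and 12.29 in DCP livers. ME livers came next with 9.56 to 9.73 and Urethane livers last with 7.89 to 8.09, and the 3 other compounds differed among themselves (F test adjusted p = 0.000123). DCP still exceeded ME livers in Jun by 2.49. The classic early genes were less even: Fos read 7.85, 5.12 and 8.22 in DCP livers, against 3.47 to 6.98 in the others, and Egr1 12.71, 12.27 and 12.73 against 8.69 to 12.32 in the others. Both passed, with differences of 2.54 ± 0.61 for Fos and 2.24 ± 0.44 for Egr1, and both ranges overlapped. Against SN alone the Egr1 difference was 0.99 (adjusted p = 0.154).

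**Figure D1:**
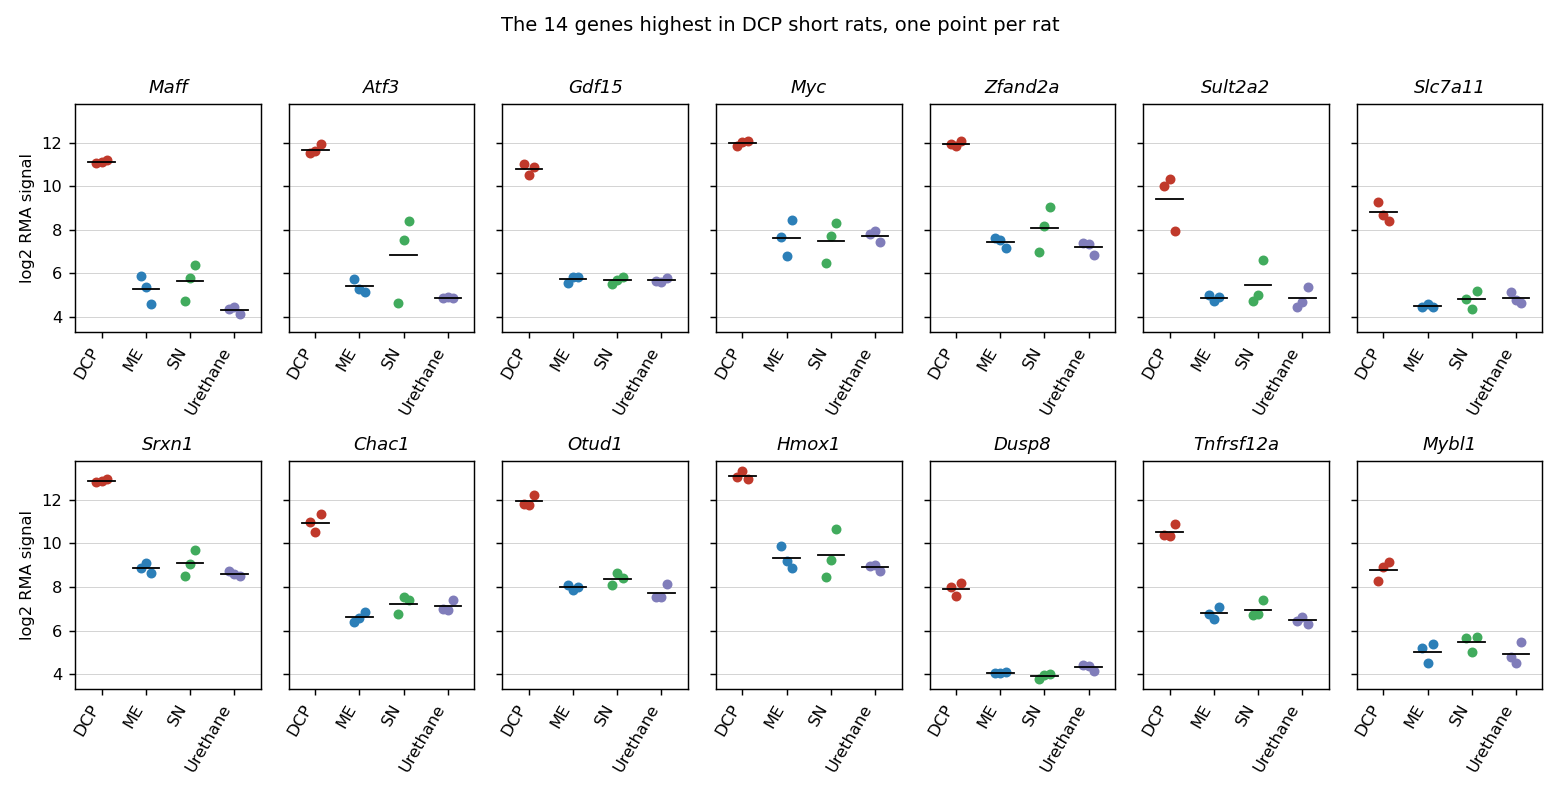
Signals of the 14 genes with the largest upward differences under the naming rule given below, on the log2 RMA scale, in livers of DCP, ME, SN and Urethane short rats. Each point is 1 rat and each line the mean of 3. The DCP points lie above all 9 others in every panel, and Sult2a2 has the widest DCP spread, 7.94 to 10.34.

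Phosphatases and regulators of signalling were among the 14 highest genes too. Dusp8, a phosphatase that inactivates MAP kinases of the JNK and p38 type, read 7.99, 7.61 and 8.18 in DCP livers, against 3.79 to 4.41 (median 4.06) in the others, a difference of 3.82. Dusp8 passed the signal filter only through the 3 DCP short arrays, so its difference is a description with no test; none of the other genes named here entered in that way. Otud1, a deubiquitinase, read 11.80, 11.75 and 12.24 in DCP livers against 7.53 to 8.62 in the others, a difference of 3.89 ± 0.16. Zfand2a, whose protein (AIRAP) was found as arsenite-inducible and binds the proteasome, read 11.91, 11.83 and 12.08 in DCP livers against 6.86 to 9.05 in the others, a difference of 4.37 ± 0.26. The highest Zfand2a reading of another compound was again SN short replicate 3. Mybl1, a MYB family transcription factor, differed by 3.66 ± 0.30.

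Genes of the integrated stress response rose as a broad group, with a median difference of 0.86. Of 34 tested, 25 were higher in DCP livers, 2 lower and 7 did not pass, beside 13.6% of all genes higher and 28.5% lower. Gdf15, a stress hormone that acts on hindbrain receptors to reduce food intake, separated the groups most evenly. It read 11.02, 10.53 and 10.86 in DCP livers and 5.51 to 5.83 (median 5.69) in all 9 others, a difference of 5.10 ± 0.13 (SE, 34.4-fold, adjusted p = 1.48e-15). Chac1, the enzyme that degrades glutathione in the cytosol, read 10.97, 10.52 and 11.35 in DCP livers against 6.41 to 7.54 (median 6.96) in the others, a difference of 3.96 ± 0.19. Slc7a1, a carrier of arginine and lysine, read 10.43, 9.42 and 9.86 against 5.14 to 7.25 in the others, a difference of 3.61 ± 0.28. Each of these 3 genes separated DCP livers from the 9 others with no overlap. Atf4 itself rose by 0.93 ± 0.12. Its partner and target Ddit3 (CHOP) rose by 2.78 ± 0.18, the pseudokinase Trib3 by 2.64 ± 0.21, and Ppp1r15a (GADD34), which brings the phosphatase to eIF2 alpha, by 2.42 ± 0.12. Fgf21, a hormone made by the stressed or fasted liver, read 11.19, 9.67 and 10.84 in DCP livers against 6.63 to 9.24 in the others, a difference of 2.64 ± 0.39. The 2 members that fell were Wars1 (-0.25) and Shmt2 (-0.23). Their number was 0 without DCP short replicate 1, and 1 without DCP short replicate 2, ME short replicate 1, SN short replicate 3 or Urethane short replicate 1 or 2.

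Amino acid synthesis genes of the same pathway differed among the comparison compounds themselves: the F test passed for Phgdh (adjusted p = 0.0238), Mthfd2 (0.0351) and Psat1 (0.0383), but not for Asns (0.0665). Asns, which makes asparagine, read 8.89, 7.81 and 8.70 in DCP livers, while Urethane livers read 8.43, 8.55 and 8.73, SN livers 7.30, 7.76 and 7.51 and ME livers 7.61, 7.53 and 6.19. DCP and Urethane readings overlapped. The DCP minus Urethane difference was -0.10 (95% interval -0.94 to 0.73), and against ME it was 1.36 (0.52 to 2.19). Phgdh, the first enzyme of serine synthesis, differed by -0.29 from Urethane (-1.29 to 0.72) and by 1.99 from ME (0.99 to 2.99). Psat1, the next enzyme of that path, differed by 0.39 from Urethane (-0.35 to 1.12), by 1.19 from SN and by 1.90 from ME. Mthfd2, a mitochondrial folate enzyme, exceeded Urethane livers by 1.02 (0.43 to 1.61) and ME livers by 2.14. Against the mean of the 3 compounds Psat1 and Mthfd2 passed, with 1.16 ± 0.29 and 1.73 ± 0.23, while Asns with 0.73 ± 0.33 and Phgdh with 0.90 ± 0.39 did not (adjusted p = 0.0783 and 0.0726). With Urethane left out of the comparison mean, Asns and Phgdh passed with 1.15 and 1.49, and without DCP short replicate 2 with 1.06 and 1.39. Phgdh also passed without ME short replicate 1 (1.07) and without SN short replicate 2 (1.01).

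**Figure D2:**
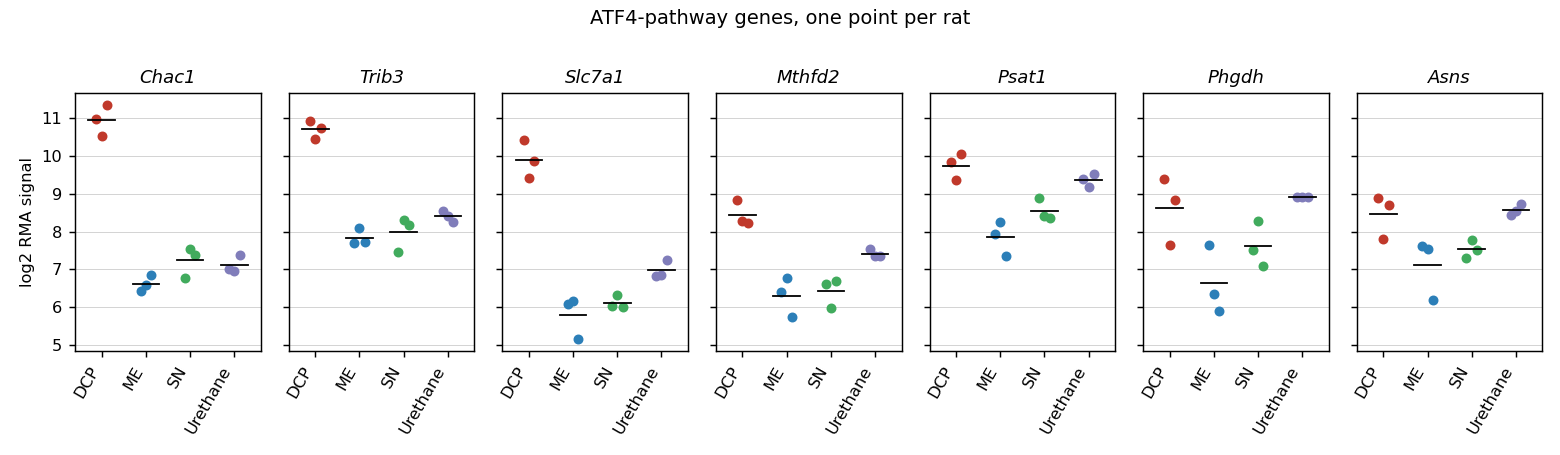
Signals of 7 genes regulated by ATF4, on the log2 RMA scale, in DCP, ME, SN and Urethane short rats; each point is 1 rat and each line the mean of 3. Chac1, Trib3 and Slc7a1 are highest in DCP livers alone, while for Phgdh and Asns the Urethane points lie at the level of the DCP points.

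NRF2 targets rose in DCP livers, with a median difference of 0.70. Of 31 tested, 17 were higher, 1 was lower and 13 did not pass, beside 13.6% of all genes higher and 28.5% lower. The cystine carrier Slc7a11, which feeds glutathione synthesis and also counts as an ATF4 target, read 9.28, 8.69 and 8.42 in DCP livers, against 4.38 to 5.20 (median 4.66) in the others, a difference of 4.07 ± 0.22 (SE, 16.8-fold, adjusted p = 5.41e-11). Srxn1, which repairs overoxidised peroxiredoxins, read 12.81, 12.85 and 12.94 against 8.51 to 9.69 in the others, a difference of 4.01 ± 0.19. Hmox1, which breaks down heme, read 13.06, 13.32 and 12.95 against 8.48 to 10.68 in the others, a difference of 3.87 ± 0.35. None of the 3 overlapped between groups, and the highest Srxn1 and Hmox1 readings outside DCP were again those of SN short replicate 3. Osgin1 rose by 2.31 ± 0.35 and the aldo-keto reductase Akr1b8 by 2.24 ± 0.41. Txnrd1, the cytosolic thioredoxin reductase, rose by 1.70 ± 0.09. Nfe2l2, the gene of NRF2 itself, rose by 0.76 ± 0.15 and Nqo1, a quinone reductase, by 0.72 ± 0.21.

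Glutathione genes were split. Of 30 tested, 8 rose, 2 fell and 20 did not pass, with a median of 0.10, beside 13.6% of all genes higher and 28.5% lower. Both subunits of glutamate cysteine ligase, the first enzyme of glutathione synthesis, rose: the modifier Gclm read 11.27, 11.53 and 11.79 in DCP livers against 9.88 to 10.72 in the others, and the catalytic Gclc 10.96, 11.22 and 11.35 against 9.56 to 10.18 in the others. Their differences were 1.34 ± 0.13 and 1.29 ± 0.14. The transferase Gsta3 rose by 1.49 ± 0.25. Gstp1, a transferase known as a marker of preneoplastic rat liver foci, read 8.85, 9.16 and 8.71 in DCP livers against 7.77 to 8.45 in the others, a difference of 0.82 ± 0.26. It no longer passed without DCP short replicate 2 (0.69, adjusted p = 0.0897).

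Among p53 targets, 12 of 23 tested rose, 5 fell and 6 did not pass, beside 13.6% of all genes higher and 28.5% lower. Their median difference was 0.62. Gdf15 is on this list as well. Mdm2, the ubiquitin ligase that limits p53, read 9.78, 9.89 and 10.04 in DCP livers, against 7.96 to 8.44 (median 8.11) in the others, a difference of 1.77 ± 0.09 (SE, adjusted p = 1.52e-11), and all 3 of its probe sets rose. Gadd45a, a growth arrest and DNA damage gene that ATF4 also induces, rose by 2.73 ± 0.25, Ccng1 by 1.43 ± 0.12 and the BH3-only gene Bbc3 (PUMA) by 1.10 ± 0.16. Cdkn1a (p21), the cell cycle inhibitor, read 10.78, 10.19 and 10.70 in DCP livers against 9.10 to 10.33 in the others and did not pass, with 0.73 ± 0.32 (adjusted p = 0.0783). It passed with the mean of its probe sets (0.93) and with only the 12 short arrays. The 5 members that fell were Ercc5 (-0.63), Sulf2 (-0.47), Sesn1 (-0.37), Perp (-0.34) and Ei24 (-0.27), of which Ercc5 serves nucleotide excision repair. The Sesn1 call was lost with any single DCP rat left out, and in 14 of 24 alternatives in all. The number that fell was 3 without DCP short replicate 2 and 3 with Urethane left aside.

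Ribosome biogenesis genes rose as a group, in a list that holds Myc itself, with a median difference of 0.43. Of 29 tested, 17 rose, 0 fell and 12 did not pass, beside 13.6% of all genes higher and 28.5% lower. Nop58, a core protein of box C/D snoRNPs, read 11.29, 10.61 and 11.16 in DCP livers, against 9.52 to 10.08 (median 9.66) in the others, a difference of 1.25 ± 0.12. Rrs1 rose by 1.07 ± 0.19, Gnl3 (nucleostemin) by 1.02 ± 0.10 and Nop56 by 0.94 ± 0.10. The polyamine gene Sat1, which acetylates spermidine and spermine, rose by 1.07 ± 0.11, and Smox, spermine oxidase, by 0.56 ± 0.10. Methionine enzymes fell beside them, with Bhmt at -0.66 ± 0.14 and Cbs at -0.64 ± 0.10, and in the methionine and polyamine list as a whole 3 of 21 rose and 9 fell.

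Endoplasmic reticulum chaperone genes went the other way from the integrated stress response genes, with a median difference of -0.27. Of 20 tested, 14 fell, 2 rose and 4 did not pass, beside 28.5% of all genes lower and 13.6% higher. Xbp1, the transcription factor of the unfolded protein response, read 11.71, 11.22 and 10.99 in DCP livers, against 11.77 to 12.56 (median 12.23) in the others, a difference of -0.90 ± 0.17. Manf fell by 0.76 on the log2 scale, Hyou1 by 0.71 and Creld2 by 0.64. Hsp90b1 (GRP94) read 11.81, 11.97 and 11.97 against 12.28 to 12.49 in the others, and the groups did not overlap. Hspa5 (BiP), the central chaperone of the compartment, differed by -0.19 ± 0.05, a call that ended without DCP short replicate 3 (adjusted p = 0.0584). The 2 that rose were Dnajb9, at 0.68 ± 0.12, and Herpud1, at 0.43, a call lost without DCP short replicate 1 (adjusted p = 0.0792) or 2 (0.115).

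Heat shock genes showed no common direction: 5 of 21 were higher and 5 lower, beside 13.6% of all genes higher and 28.5% lower. Their median was 0.04. Without DCP short replicate 3 the number higher was 2, without replicate 2 it was 3, and without replicate 1 the number lower was 3. With Urethane left aside 2 were higher. Hspb8, a small chaperone, read 11.43, 11.66 and 11.49 in DCP livers against 9.33 to 10.14 in the others, a difference of 1.79 ± 0.11. The HSP90 partners Fkbp4 and Stip1 fell by 0.81 and 0.72. Hspa1a, the inducible HSP70, read 8.65, 6.89 and 9.70 in DCP livers, while SN livers read 6.87, 9.51 and 10.54. Its difference from the mean of the 3 compounds was 0.92 ± 0.56 and did not pass (adjusted p = 0.199), but passed without DCP short replicate 2 (1.68) and with SN left aside (1.66). By compound the DCP difference was 1.21 from ME (95% interval -0.21 to 2.64), -0.56 from SN (-1.99 to 0.87) and 2.11 from Urethane (0.68 to 3.54, adjusted p = 0.0230).

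**Figure D3:**
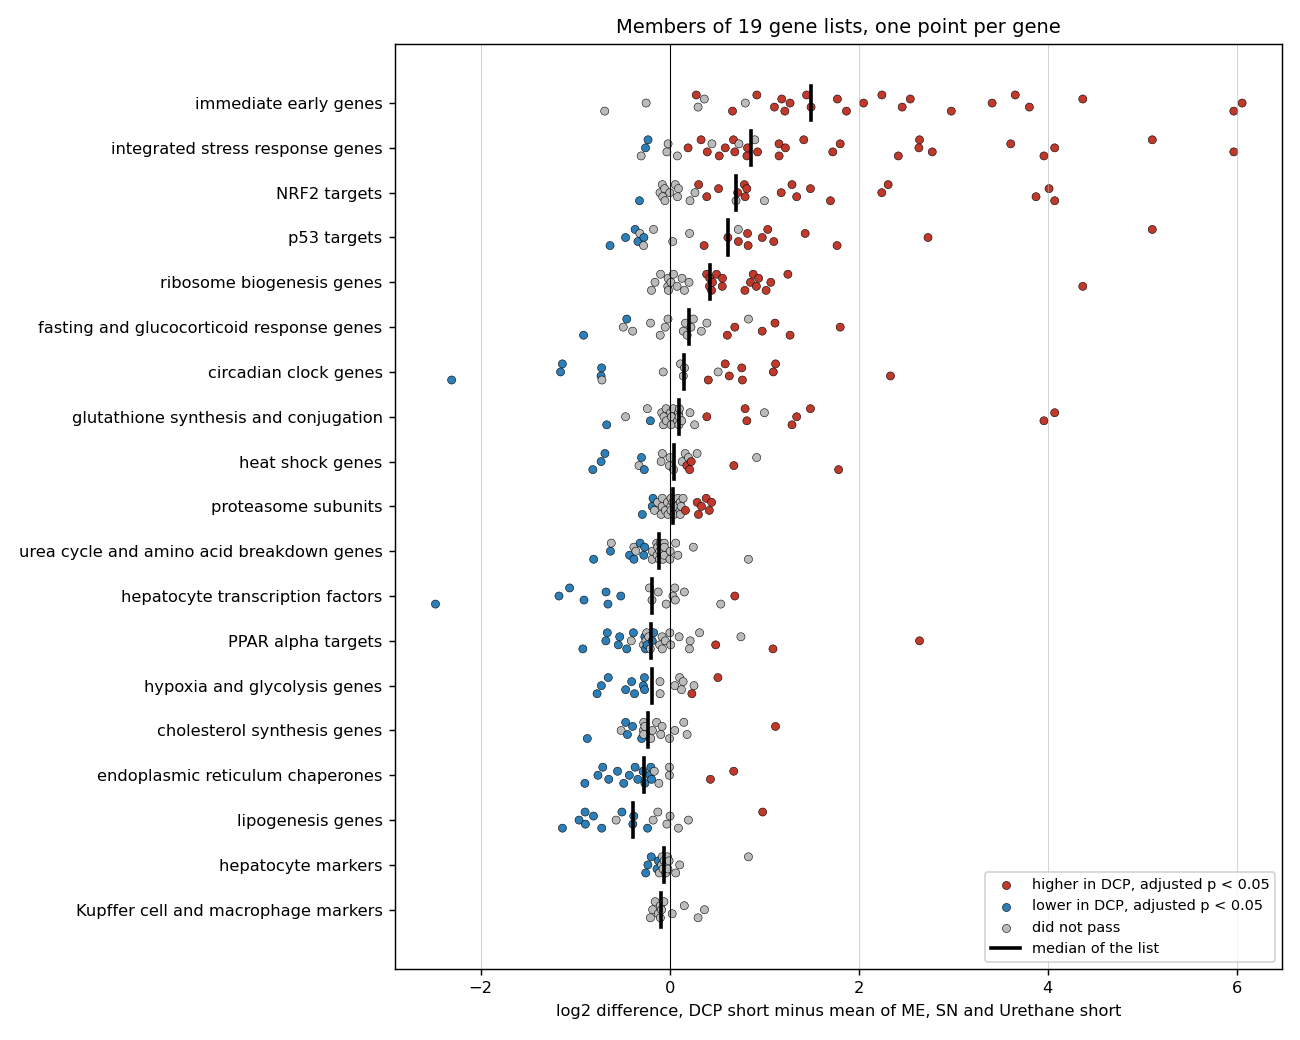
Log2 differences, DCP short minus the mean of ME, SN and Urethane short, for the tested members of 19 gene lists; each point is a gene, coloured by the limma call, and each bar the list's median. Immediate early, integrated stress response and NRF2 lists have medians of 1.50, 0.86 and 0.70, while endoplasmic reticulum chaperones and lipogenesis genes have medians of -0.27 and -0.38.

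Of 18 lipogenesis genes tested, 10 fell in DCP livers, 1 rose and 7 did not pass, with a median of -0.38, beside 28.5% of all genes lower, and 6 fell without DCP short replicate 3. Fasn, fatty acid synthase, read 9.56, 9.87 and 9.99 in DCP livers, against 10.10 to 11.41 (median 11.03) in the others, a difference of -1.13 ± 0.26. Acaca, which makes malonyl-CoA, read 9.30, 9.24 and 9.28 against 9.76 to 10.65 in the others, a difference of -0.96 ± 0.13. Acly and Thrsp fell by 0.89 each. Gpam, which starts glycerolipid synthesis, rose by 0.98 ± 0.36, a call lost with any single DCP rat left out (adjusted p = 0.0707, 0.0945 and 0.0985). Of 20 cholesterol synthesis genes 5 fell, 1 rose and 14 did not pass, beside 28.5% of all genes lower; Insig1, which holds back SREBP, rose by 1.12 ± 0.29 and Lss fell by 0.87. The number of cholesterol genes that fell was 2 without DCP short replicate 1 and 1 without replicate 3.

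Fatty acid oxidation and energy genes changed in both directions. Among PPAR alpha targets 12 of 32 fell and 3 rose, with a median of -0.19, beside 28.5% of all genes lower and 13.6% higher; Hadha, of the mitochondrial trifunctional protein, fell by 0.67 on the log2 scale and Angptl4, an inhibitor of lipoprotein lipase, by 0.92, while Cpt1b rose by 1.09 ± 0.14. The Angptl4 call was lost without DCP short replicate 2 (adjusted p = 0.0665) or 3 (0.0807). Among hypoxia and glycolysis genes 9 of 18 fell and 2 rose, with a median of -0.18, led by Ero1a at -0.77 ± 0.08 and Gpi at -0.72 ± 0.11, and 1 rose without DCP short replicate 1. Of 31 genes of nitrogen disposal and amino acid catabolism 7 fell, 0 rose and 24 did not pass, beside 28.5% of all genes lower, and 11 fell without Urethane short replicate 3. Hal, histidine ammonia lyase, fell by 0.80 and Nags, which makes the activator of the urea cycle, by 0.63. Among fasting and glucocorticoid response genes 6 of 22 rose and 2 fell, or 1 fell with any single DCP rat left out: Ddit4, an inhibitor of mTORC1, rose by 1.80 ± 0.22 and the secreted Igfbp1 by 1.11 ± 0.32.

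Hepatocyte transcription factors changed unevenly: 7 of 17 tested fell, 1 rose and 9 did not pass, with a median of -0.19, beside 28.5% of all genes lower and 13.6% higher. Nr1i3 (CAR), a receptor that controls drug metabolism genes, read 7.29, 7.31 and 7.39 in DCP livers, against 8.18 to 9.01 (median 8.31) in the others, a difference of -1.17 ± 0.18. Onecut2 fell by 1.06 and Foxa1 by 0.91. Onecut1 (HNF6) read 9.64, 6.97 and 6.13 against 8.03 to 11.64 in the others, a difference of -2.48 ± 0.76. DCP replicate 1 lay within the range of the other compounds, and the call for Onecut1 was lost without DCP short replicate 2 (-2.17) or 3 (-1.75) and with Urethane left aside (-1.79). The one that rose was Cebpb, at 0.69 ± 0.19, a call lost with SN left aside (0.45, adjusted p = 0.0925), and 2 rose without Urethane short replicate 3. Of the abundant hepatocyte markers 5 of 18 fell and 0 rose, beside 28.5% of all genes lower, and their differences ran from -0.25 to 0.83. The number that fell was 1 without DCP short replicate 1, 3 without replicate 2, 2 under quantile normalization and 8 with a robust trend fit.

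Clock genes changed in both directions. Of 19 tested, 8 rose, 5 fell and 6 did not pass, beside 13.6% of all genes higher and 28.5% lower. The median was 0.16. Without DCP short replicate 1 the counts were 4 and 2. The number that rose was 5 without DCP short replicate 2, without replicate 3, or with ME or SN left aside. Dbp, an output factor of the clock, had the largest downward difference among called genes with no overlap. It read 5.15, 5.86 and 5.27 in DCP livers, against 6.00 to 9.98 (median 7.46) in the others. Its difference was -2.31 ± 0.69 (SE, adjusted p = 0.0109), and the adjusted p was 0.0513 without DCP short replicate 1. Per3 and Nr1d1 (REV-ERB alpha) fell by 1.15 and 1.13 on the log2 scale, Per3 not passing without DCP short replicate 1 (adjusted p = 0.0691) or 3 (0.0513) or with ME left aside (0.0581), while Bmal1 rose by 1.10 ± 0.39 and Rora by 1.12 ± 0.26. The Bmal1 call was lost without DCP short replicate 1 (adjusted p = 0.0760) or 3 (0.142) and with ME left aside (0.0844). Within ME and Urethane the third rat differed from the other two in these genes: Dbp was 6.49 in ME short replicate 3 beside 9.31 and 9.98, and 6.00 in Urethane short replicate 3 beside 8.13 and 8.09. Noct (nocturnin), a rhythmic gene, read 9.20, 9.13 and 9.06 in DCP livers, 4.63 to 8.36 in ME livers, 5.11 to 5.58 in SN livers and 10.05, 9.99 and 6.24 in Urethane livers. Its difference from the mean was 2.34 ± 0.75, lost with SN left aside (1.58, adjusted p = 0.128) and without DCP short replicate 1 (0.0581) or 2 (0.0516), and from Urethane it was 0.37 (95% interval -1.55 to 2.29). The hour of sampling is not given in the labels, and its part in these differences was not tested.

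Immune genes were mixed. Of 20 chemokine and cytokine signalling genes 4 rose and 5 fell, beside 13.6% of all genes higher and 28.5% lower. Their median was 0.06, and 3 fell without DCP short replicate 1 or 3, ME short replicate 2 or Urethane short replicate 2. Nfkbiz, which encodes I kappa B zeta, read 11.38, 11.53 and 11.71 in DCP livers, against 8.31 to 9.92 (median 9.07) in the others, a difference of 2.44 ± 0.26, which 1 of its 2 probe sets showed past the threshold. The chemokine Cxcl10 read 7.47, 7.29 and 7.24 in DCP livers against 4.80 to 6.14 in the others, a difference of 2.01 ± 0.25, and Il1a rose by 1.02 ± 0.18. Acute phase plasma proteins showed 7 lower and 2 higher of 19, beside 28.5% of all genes lower and 13.6% higher, with small differences such as -0.43 for Serpina3n. The number that fell was 2 without DCP short replicate 1 and 3 under quantile normalization, and 0 rose without DCP short replicate 1 or 3, or 1 without ME short replicate 1, SN short replicate 3 or Urethane short replicate 3. Interferon response genes had 2 of 21 higher, Cxcl10 and Ifit2 (1.24), and 4 lower, or 2 lower without DCP short replicate 1 or 2. Markers of macrophages gave no call in 12 genes tested, and their mean signal was 9.45 to 9.60 in DCP livers, within the 9.03 to 10.70 of the others. The 10.70 belongs to ME short replicate 1. Neutrophil and lymphocyte lists had only 2 genes tested each and no call; means over all their probes on the array were 4.47 to 4.97 and 4.86 to 5.00 in DCP livers, against 4.14 to 4.95 and 4.56 to 5.34 in the others. Endothelial markers had 2 of 11 higher, Lyve1 (0.48) and Fcgr2b (0.45), both lost without DCP short replicate 1, while 4 were higher without DCP short replicate 3 or SN short replicate 2, and stellate cell markers 2 of 17 lower, Col5a1 (-0.41) and Pdgfrb (-0.33). The Pdgfrb call was lost in 7 of 23 alternatives, among them leaving out DCP short replicate 1 (-0.19), ME short replicate 1 or ME short replicate 3. The part of cell makeup in the gene groups above was not tested.

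Among genes of xenobiotic metabolism, 2 of 17 CAR and PXR targets rose and 4 fell, beside 13.6% of all genes higher and 28.5% lower. Of 6 AHR targets 3 rose, Nfe2l2, Nqo1 and Tiparp, and 1 fell, Cyp1a2, or 0 fell without DCP short replicate 1 or 3. Nfe2l2 and Nqo1 were also given above with the NRF2 targets. Without DCP short replicate 1 the number of CAR and PXR targets that fell was 0, and without Urethane short replicate 1 it was 2. Cyp1a1, a classic AHR target, read 4.32, 4.38 and 4.93 in DCP livers against 4.14 to 7.05 in the others and did not pass (-0.31 ± 0.34, or 0.10 with ME left aside). Alas1, the first enzyme of heme synthesis, read 9.57, 9.57 and 9.82 in DCP livers, 10.47 to 12.94 in ME livers, 8.72 to 9.54 in SN livers and 10.58 to 11.11 in Urethane livers. Its call against the mean, -1.03 ± 0.34, was lost with ME left aside (-0.41, adjusted p = 0.381), without DCP short replicate 1 (-0.99) and without replicate 2 (-0.99). Sult2a2, a sulfotransferase of bile acids and steroids, was among the 14 highest genes: it read 9.99, 10.34 and 7.94 in DCP livers against 4.45 to 6.61 in the others, a difference of 4.36 ± 0.53. It is one of several near-identical genes whose probe sets can share signal.

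The 14 lowest genes included transcription factors, an output factor of the clock and a tRNA synthetase. After Dbp, the lowest with no overlap were Exph5, an effector of RAB27 (4.01-fold lower), the zinc-finger gene Zfp37 at -1.98 ± 0.19, Fer1l5 at -1.89 ± 0.23 and the homeobox gene Meox2 at -1.87 ± 0.27. Exph5 read 5.22, 5.18 and 5.77 in DCP livers, against 6.67 to 8.16 (median 7.41) in the others. Zfp37 read 4.37, 4.27 and 4.51 in DCP livers, against 5.92 to 6.67 (median 6.34) in the others. Meox2 differed among the other compounds too, from 7.13 to 7.80 in ME livers down to 5.86 to 5.98 in Urethane livers (F test adjusted p = 0.0276). Depp1, a FOXO target, read 9.15, 8.69 and 8.29 in DCP livers against 9.56 to 10.93 in the others, a difference of -1.60 ± 0.30. Tbx3, a T-box factor of pericentral hepatocytes, differed by -1.59 ± 0.26, in 1 of its 3 probe sets, and Myorg by -1.45 ± 0.16, in 1 of 2. Nars2, the mitochondrial asparaginyl-tRNA synthetase, read 5.04, 4.86 and 5.09 in DCP livers against 5.92 to 6.86 in the others, a difference of -1.39 ± 0.14; its cytosolic counterpart Nars1, an ATF4 target, rose by 0.52 ± 0.08. Wfdc2, at -1.60 ± 0.42, rested partly on DCP short replicate 1, which read 6.48 beside 8.40 and 8.40; without it the difference was -0.96 (adjusted p = 0.0891). Among called genes, larger mean differences with overlapping arrays were those of Onecut1 and of Rgs16, a regulator of G protein signalling (-2.33 ± 0.70). The Rgs16 call was lost without DCP short replicate 2 (adjusted p = 0.0540).

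The remaining lists are given by their counts, beside 13.6% of all genes higher and 28.5% lower. Proteasome subunits had 7 of 30 higher, up to 0.44 for Psmc6, and 3 lower, or 1 lower without DCP short replicate 1. Bile acid genes had 3 of 18 higher and 4 lower, with Hsd3b7 at -0.76, a call lost without DCP short replicate 3, and 1 higher without that rat. Growth hormone-dependent male genes had 0 of 19 higher and 4 lower, Onecut1 among them, or 2 lower with any single DCP rat left out. Pericentral genes had 3 of 14 higher and 3 lower, with 1 higher without DCP short replicate 2 or 3 and 1 lower without replicate 3. Periportal genes had 0 of 12 higher and 2 lower, Hal and Uroc1 (-0.27), with 5 lower without Urethane short replicate 3. Heme synthesis genes had 2 of 11 higher and 4 lower, with 2, 1 and 2 lower without DCP short replicates 1, 2 and 3. Metallothionein and zinc genes had 2 of 7 higher, Mt1 (0.34) and Mtf1 (0.39), and 1 lower, Slc39a14 (-0.52). The Mt1 call was lost in 5 of 24 alternatives, among them leaving out DCP short replicate 1 (adjusted p = 0.0701) or 3 (0.22 on the log2 scale), and the number lower was 2 without ME short replicate 1. Cholangiocyte markers had 0 of 3 higher and 1 lower, Epcam, a call lost in 5 of 24 alternatives. Erythroid markers had 1 of 4 higher, Ahsp, and 0 lower, and the Ahsp call was lost in 17 of 24 alternatives. Pancreas markers had 2 genes tested and no call, with mean signals of 8.09 to 8.72 in DCP livers and 7.77 to 8.38 in the others.

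**Figure D4:**
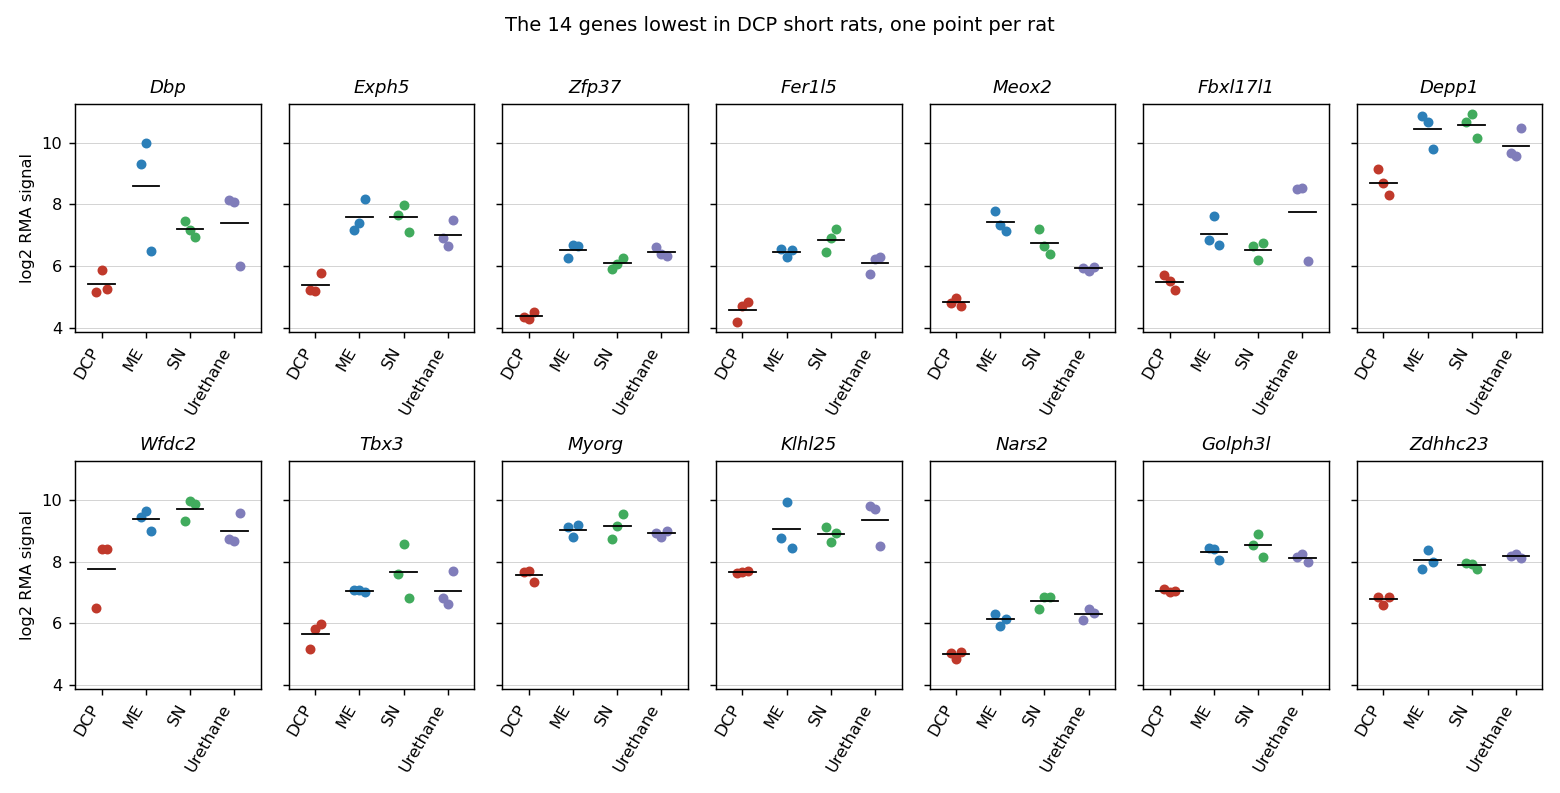
Signals of the 14 called genes with the largest downward differences and no overlap under the naming rule given below, on the log2 RMA scale, in DCP, ME, SN and Urethane short rats. Each point is 1 rat and each line the mean of 3. The DCP points lie below all 9 others, and the gap is narrow for Dbp, where Urethane short replicate 3 reads 6.00 and the highest DCP rat 5.86.

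The same compounds were also given repeatedly. The long arrays, labelled 72 hours with 3 administrations, gave DCP minus other compounds differences that were tested against the short ones in 1 interaction contrast, which called 3080 genes (30.1%). The genes described here were chosen for their short difference, which is part of that contrast, so their change between the times is a description, with no test. The long contrast alone called 3851 genes (37.7%), 1820 higher (17.8%) and 2031 lower (19.9%). Maff read 4.25, 4.11 and 4.31 in DCP long livers, Gdf15 6.17, 6.21 and 6.33 and Srxn1 8.44, 8.29 and 8.24, and the long differences from the other compounds were -0.44 ± 0.27, -0.30 ± 0.13 and -0.23 ± 0.19 (SE). Chac1 and Slc7a11 had long differences of 0.90 ± 0.19 and 0.91 ± 0.22, both past the test (adjusted p = 0.00114 and 0.00306). Zfp37 and Fer1l5 were low in DCP long livers as well, at -2.32 ± 0.19 and -1.57 ± 0.23. Immediate early genes had a median long difference of 0.01 beside the 1.50 at the short time. Proliferation genes had 1 of 33 higher and 2 lower in DCP short livers, beside 13.6% of all genes higher and 28.5% lower. The number lower was 1 without any single DCP rat or without ME short replicate 1 or 3. It was also 1 without SN short replicate 1 or Urethane short replicate 1. Pcna stood at 0.54 and the cyclin Ccnd1 at -0.96. In DCP long livers 30 of 33 were higher, with a median long difference of 2.03.

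**Figure D5:**
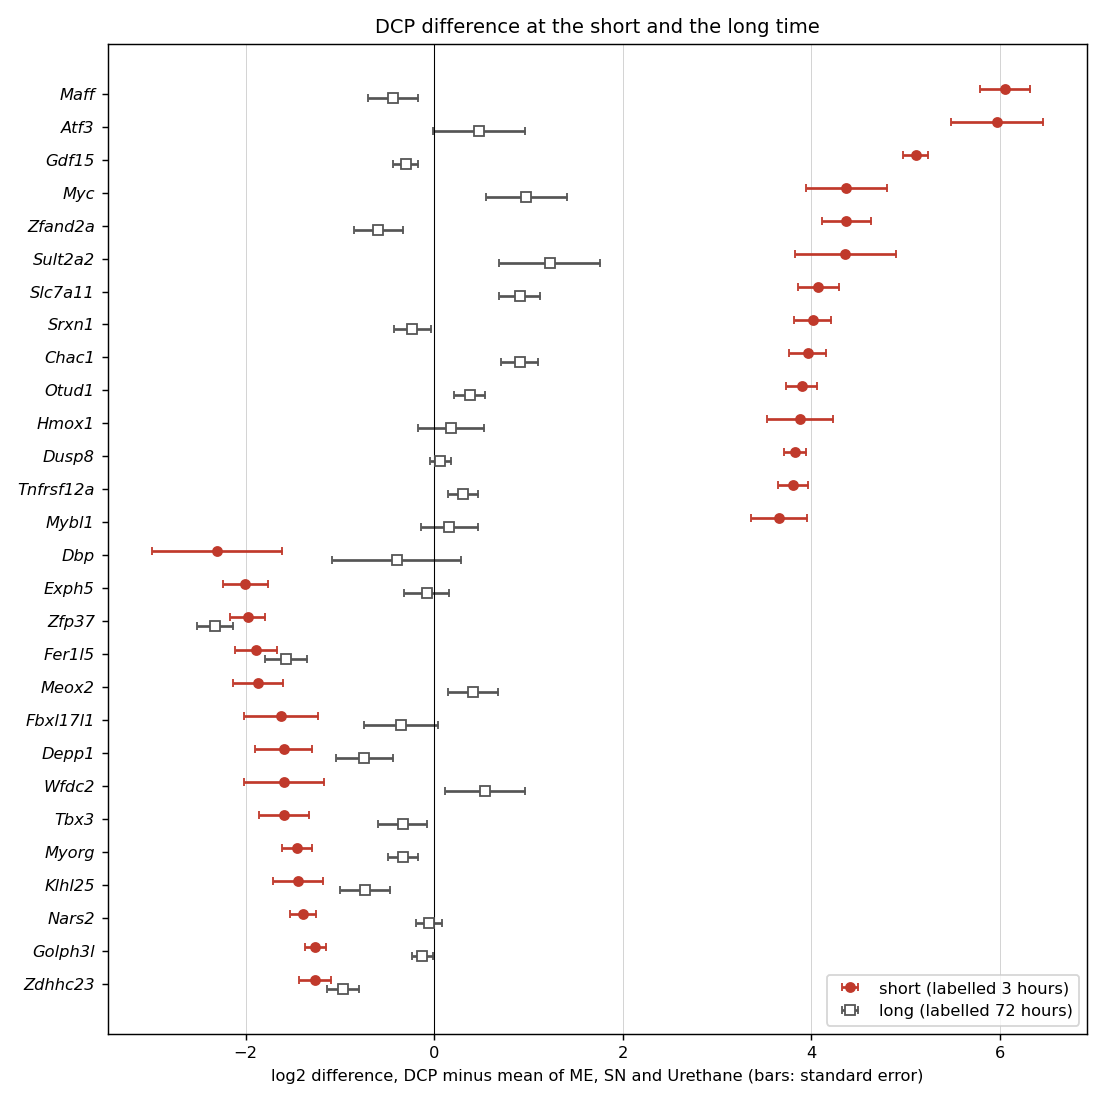
Log2 differences of DCP from the mean of ME, SN and Urethane at the short and long times for the 28 genes with the largest differences and no overlap under the naming rule given below. Bars are standard errors. The long differences of Maff, Gdf15 and Srxn1 are -0.44, -0.30 and -0.23, while those of Sult2a2, Myc, Slc7a11 and Chac1 are 1.22, 0.98, 0.91 and 0.90, and those of Zfp37, Fer1l5 and Zdhhc23 are -2.32, -1.57 and -0.97.

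No control rats belong to the test set. The 6 control rats of the 2 other sets were normalized apart, so set and treatment cannot be told apart, and their levels after a joint quantile normalization are given as description only. On that scale Gdf15 averaged 11.07 in DCP livers and 6.05 in the other compounds, with controls at 5.51 to 5.88. Maff averaged 11.38 in DCP livers and 5.47 in the others, with controls at 4.89 to 5.60. For some genes the other compounds, not DCP, lay away from the controls: Klhl25 averaged 7.97 in DCP livers and 9.37 in the others, with controls at 7.96 to 8.44, and Nars2 averaged 5.37 in DCP livers and 6.68 in the others, with controls at 5.05 to 5.82. Fgf21 averaged 10.83 in DCP livers and 8.20 in the others, with controls at 9.39 to 11.05. Chac1 averaged 11.21 in DCP livers and 7.27 in the others, with controls at 7.96 to 9.07.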

How the data were processed

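Liver RNA of single rats was hybridised to Affymetrix arrays. The authors deposited log2 values standardized by RMA, per the series' design text and the submitters' processing notes. The minima and maxima of the columns differ between the training and test sets with no overlap, so each set had been normalized apart, and comparisons stay within the test set. Of 31099 probe sets, 20826 carry 1 gene symbol, 436 several and 9780 none, and 57 are controls; each gene took the single-symbol probe set with the highest mean over all 65 arrays, giving 14217 genes. Genes above the test-set median (log2 5.64) in at least 2 of the 24 test-set arrays were tested, 10220 in all. One mean per group was fitted over these 24 arrays (8 groups) with limma 3.58.1 in R 4.3.3, with eBayes and Benjamini-Hochberg adjustment; residual degrees of freedom were 16 and prior 2.95. Replicates are labelled biological, 3 rats a group, and p-values measure the spread between rats of a group. The number of arrays limits the precision.

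Named genes are the 14 highest and 14 lowest called genes whose 3 DCP arrays do not overlap the 9 others. Symbols that start with LOC, RGD or AABR, or that have no letters, were left out of both. Also named are up to 5 called members with the largest difference in each of 39 lists. The lists hold 851 entries, 767 of them on the array, and 30 lists are of pathways and 9 of cell types. Other named genes are marked in the text. Groups and lists were chosen with earlier results of these data known, and lists are described by counts without a set test. The fit was tested on simulated data: for the comparison of DCP with the others, with 200 of 10220 genes changed, 99% were recovered at a log2 change of 1 and 100% at 2, with 13 false calls. The simulation drew independent normal noise around 1 mean per gene, with no differences among the other compounds and no outlying arrays. In the data 42% of genes were called and the other compounds differed, so these figures do not carry over. Promoter windows came from RefSeq (GRCr8); 9 of the 14 highest genes had one. Alternatives were other filters, probe set means, moderation, quantile normalization, a replicate block, the short arrays alone, each compound left aside, compound means as replicates and each rat left out.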

Additional observations from a re-analysis of the deposited data

Results flagged for a closer look

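The DCP difference from the other compounds was not the same at the short and the long time for 3080 genes (interaction contrast, limma). The genes below were chosen for their short difference, which is part of this contrast, so their values describe and support nothing further. Among the 14 highest genes the short difference exceeded the long one by 6.49 for Maff, 5.49 for Atf3, 5.41 for Gdf15, 4.96 for Zfand2a, 4.24 for Srxn1, 3.76 for Dusp8, 3.70 for Hmox1, 3.52 for Otud1, 3.50 for Tnfrsf12a, 3.50 for Mybl1, 3.39 for Myc, 3.16 for Slc7a11, 3.14 for Sult2a2 and 3.05 for Chac1 on the log2 scale. Among the 14 lowest genes the difference, short minus long, was -2.28 for Meox2, -2.14 for Wfdc2, -1.92 for Exph5, -1.33 for Nars2, -1.26 for Tbx3, -1.14 for Golph3l and -1.12 for Myorg. Dose number and labelled hours changed together between the short and the long arrays, and their parts cannot be told apart.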

How the results depend on the processing

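The comparison of DCP with the other compounds called 4297 genes as reported. Between 3880 and 4392 were called with no filter, mean of all probe sets, other moderation, quantile normalization or 1 compound left aside, 3275 of fewer genes tested with a stricter filter and 3877 with only the 12 short arrays. Counting compound means as replicates gave 219, all shared with the 4297; that fit has 2 residual degrees of freedom. Leaving out 1 rat at a time gave 3417 (without DCP short replicate 1) to 4319 genes, 2779 to 3531 against ME, 3270 to 4121 against SN, 2632 to 3403 against Urethane, and 2588 to 3227 for the interaction. The F test among the other compounds, 569 genes, gave 199 (without Urethane short replicate 2) to 726 (without ME short replicate 2), 314 without SN short replicate 2, 222 without Urethane short replicate 1, 112 with only the 12 short arrays and 187 with Urethane short replicates 1 and 2 averaged, a choice made after the data were seen; the cause was not tested. Quantile normalization moved the share of called genes that were higher to 37.4%, from 32.3%. Of 189 genes refitted under the alternatives they entered, all those named among them, 1 reversed: Cyp1a1, which did not pass, was 0.10 with ME left aside. With compound means as replicates, 47 of the 189 kept their result and 142 lost their call. Without DCP short replicate 1, 41 lost it. The 14 highest genes passed in all 336 refits and the 14 lowest in 321 of 332. These genes were chosen for large calls on the same arrays, so passing again was largely built in and adds no support. Dusp8, given above as a description with no test, is counted among the 14 highest. Counted over compound means, 11 immediate early genes, 8 integrated stress response genes, 7 NRF2 targets, 5 p53 targets and 5 ribosome biogenesis genes rose, and 1 endoplasmic reticulum chaperone and 1 lipogenesis gene fell. By that count 165 of all 10220 genes tested rose and 54 fell.

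Replicate numbers are shared between groups, and the sample titles give them as biological replicates only. Deviations of same-numbered arrays correlated at -0.34 to 0.36 (median 0.03), beside -0.31 to 0.29 (median 0.01) for arrays of different number. Over all genes the numbers thus gave no sign of pairing, and pairing in a smaller set of genes was not tested. A fit with the replicate block called 4197 genes for DCP against the others, and 455 for the F test.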

Other observations

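Ribosomal and other symbol families gave a further description, chosen after the values were seen: genes were grouped by the letters before the first digit of their symbol, and 30 families had at least 25 genes tested. Large-subunit ribosomal protein genes (Rpl) had 20 of 28 higher in DCP livers (71.4%, beside 13.6% of all genes) and 0 lower, with a median difference of 0.16, and 22 of 28 with quantile normalization. Mitochondrial large-subunit genes (Mrpl) had 1 of 46 higher and 7 lower. Cytochrome P450 genes (Cyp) had 1 of 47 higher and 13 lower (27.7%, beside 28.5% of all genes). Trim genes, many of them ubiquitin ligases, had 1 of 27 higher and 13 lower (48.1%), with a median of -0.25, and Vps genes, of vesicle sorting, 2 of 33 higher and 15 lower (45.5%), with a median of -0.17.

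SN short rats differed among themselves in several stress genes, as ME and Urethane rats did in the clock genes given above. SN short replicates 1, 2 and 3 read 4.64, 7.52 and 8.42 for Atf3, 6.96, 8.19 and 9.05 for Zfand2a, 8.48, 9.24 and 10.68 for Hmox1 and 6.87, 9.51 and 10.54 for Hspa1a.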
